A study of Mus musculus with 12 samples.

Results

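The adhesion G protein-coupled receptors were examined in side population cells of the mouse sorted from 2 sites, the extraocular muscles around the eyeball (EOM) and a leg muscle, tibialis anterior (TA). The family was chosen with earlier results of these data known, and its members were then taken by name. They are all genes whose symbol in the platform's probe-to-gene table is Adgr with a subfamily letter and number, or Celsr1 to Celsr3. This gave 25 genes with 45 probe sets, of 18193 named genes in the table. Side population cells are the minor fraction of a tissue digest that exports the dye Hoechst, and the labels give 6 independent preparations per muscle, each on 1 array. The 2 groups are named by muscle alone: strain, genotype, treatment, sex, age and pooling of animals are not given in the sources used here. Abcg2, the transporter behind the dye export, had signals between 100.3 and 3461 over the 12 arrays and was lower in EOM. Detection calls were not used, so this range alone does not show that the gene was expressed on every array.

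Adhesion receptors are a family of cell surface proteins with a long extracellular part, which binds matrix or the surface of neighbouring cells, and a membrane part that signals through G proteins. Most members cut themselves at a site next to the membrane, and the short peptide that this frees can act as a tethered agonist. In vessels, Adgrl4 and Adgrf5 are known from endothelial cells and Adgra2 from the growth of brain capillaries. In nerve, Adgrg6 is required for myelination by Schwann cells, and in blood Adgre1 and Adgre5 are surface proteins of leukocytes.

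Adhesion receptors differed between the muscles in both directions. Of the 25 genes, 17 were above the level filter, which drops the 40% of probe sets that are dimmest on average, and were tested. In EOM 6 of them fell, led by the endothelial receptors Adgrl4 and Adgrf5, and 5 rose, led by Adgrg2, a receptor known from the epididymis, and Adgrv1, a very large receptor of inner ear hair cells. The other 6 did not pass the threshold (limma, adjusted p under 0.05 over all 27022 probe sets tested). Among all 13067 genes tested, 6.81% were lower and 4.05% higher in EOM. The groups did not overlap in 9 of the 17 genes, against 7.13% of all genes tested. Since the family was chosen with earlier results of these data known, these shares are a description only. A gene that is high in 1 muscle can pass the level filter through that muscle alone, so the same fit was made with no filter: 10 of 25 members then passed, 6 lower and 4 higher, against 6.65% of all genes. The median log2 difference of the 17, which went both ways, was -0.27 with all arrays and -0.54 without EOM 1, beside -0.04 and -0.07 for all genes tested.

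**Figure D1:**
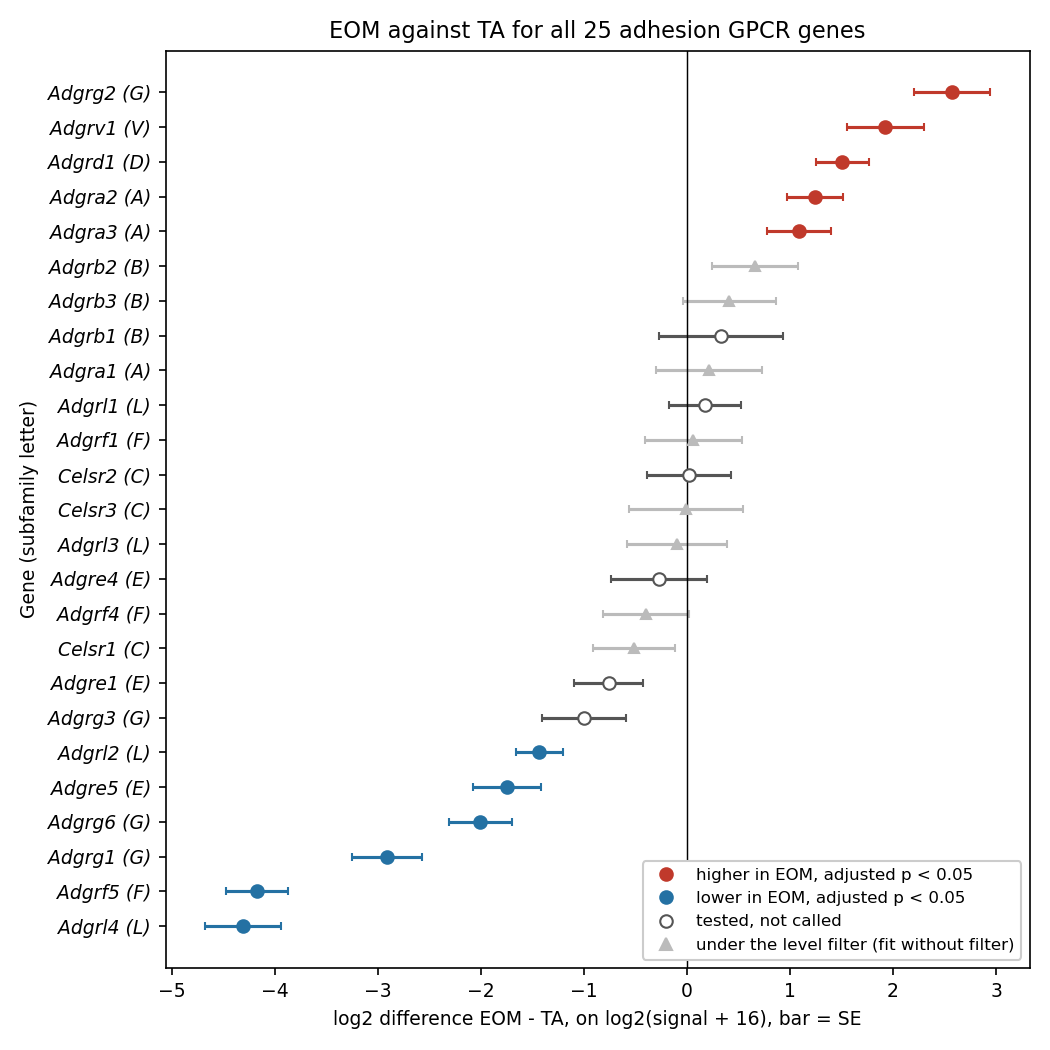
Log2 difference EOM minus TA of all 25 adhesion receptor genes, on the scale log2(signal + 16), with 1 SE as bar; the letter after each name is the subfamily. The 6 genes that fell lie between -4.31 and -1.43 and the 5 that rose between 1.09 and 2.58, while the triangles mark the 8 genes under the level filter, shown from the fit without it.

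A few arrays stood apart. EOM 1 had a median signal of 87.2, TA 3 of 69.6 and TA 5 of 63.2, where the other 9 had 31.2 to 43.4, although every array had been scaled to 1 trimmed mean. Their 3' to 5' signal ratios of beta-actin were 104, 165 and 100, beside 68.6 on TA 2 and 5.27 to 28.5 on the rest. Those of Gapdh were 9.88, 17.3 and 34.5, beside 4.92 to 24.5 on the other 9. Their hybridization controls had mean signals of 23685, 17204 and 10859, beside 2781 to 6573. What set these arrays apart was not tested. The mean correlation of EOM 1 with the other EOM arrays was 0.632, where the other arrays of both groups had 0.786 to 0.888 with their own group. Without EOM 1, 7 members fell (Adgrg3 in addition) and 5 rose, beside 10.5% lower and 10.0% higher among all genes. Without EOM 1, TA 3 and TA 5, 6 fell and 4 rose (not Adgra3), beside 11.2% and 10.6%.

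**Figure D2:**
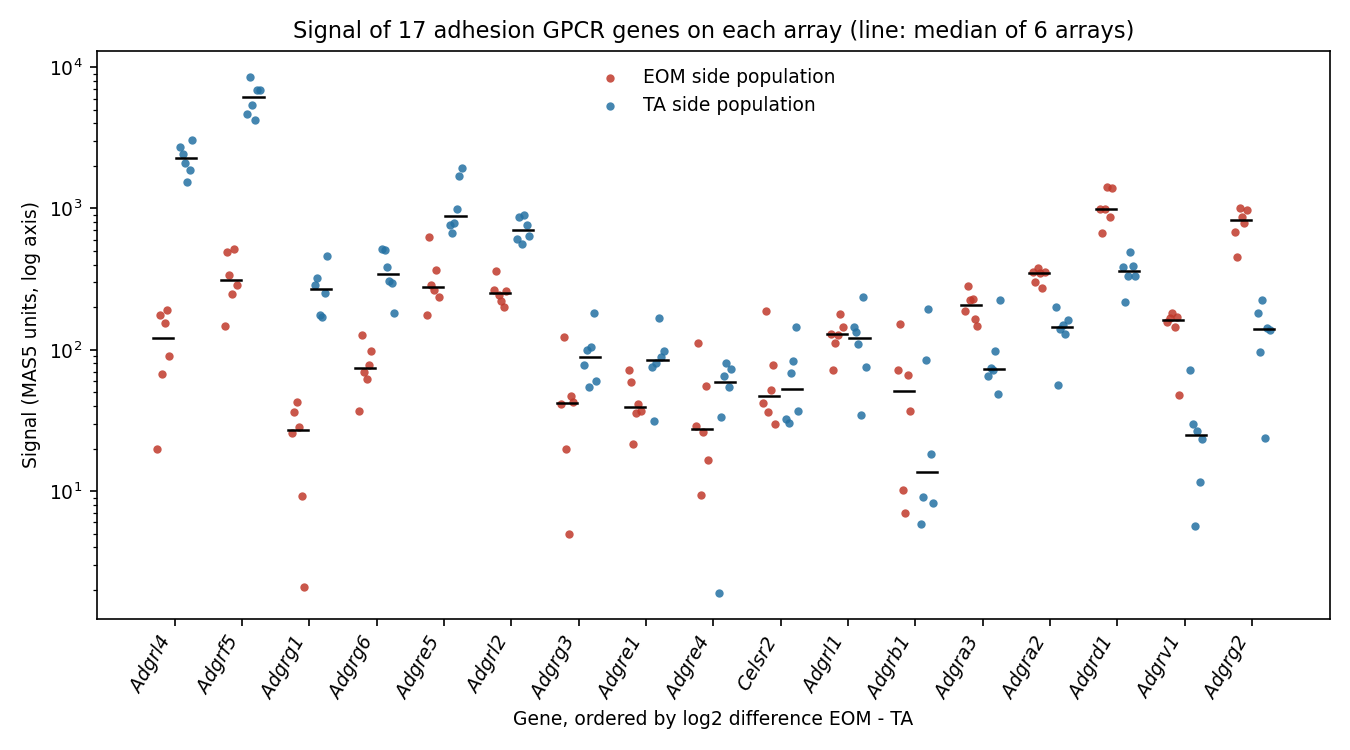
Signal of the 17 tested adhesion receptor genes on each of the 12 arrays (log axis, MAS5 signal units), ordered by the difference EOM minus TA; points are arrays and lines the median of 6. For Adgrl4 and Adgrf5 at the left every TA point lies above every EOM point, and for Adgrd1 and Adgrg2 at the right every EOM point lies above every TA point.

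Latrophilins and their relative Adgrl4 make up the L subfamily. Adgrl4, known as a receptor of endothelial cells that takes part in vessel sprouting, had the largest decrease of all members with the constant of 16. Adgrf5 fell further with 64 as added constant, at -3.98 against -3.77. It also did so as the mean of probe sets, at -3.94 against -3.39. Under the other alternatives Adgrl4 fell further. The Adgrl4 signal ran from 19.9 to 192 in EOM, with a median of 122, and from 1543 to 3031 in TA, with a median of 2263. All 6 TA arrays were far above all 6 EOM arrays, and EOM 0 was the lowest. The log2 difference was -4.31 ± 0.37 (SE, adjusted p = 7.41e-07), a 19.8-fold difference on the scale log2(signal + 16), which understates the change of a gene with low signal. Its other probe set was at -2.47 ± 0.38 (SE, adjusted p = 0.00032), a smaller decrease, and there the groups overlapped, with EOM up to 130.1 and TA down to 111.

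Of the 11 members that changed, 8 had a start in the RefSeq promoter table (GRCm38.p6). In 2 of these the 250 bases before it lay wholly outside the gene, so the window can be shown without transcribed sequence of that gene. The windows are those of Adgrl4, among the members that fell, and Adgra3, among those that rose. Capitals mark matches, on either strand, to AGGAAG, a core bound by ETS factors, or GGGCGG, the GC box; TATAAA was searched too. They are shown 5′ to 3′ along the gene, at chr3:151437632-151437881 (plus strand) and chr5:50058997-50059246 (minus strand).
Adgrl4: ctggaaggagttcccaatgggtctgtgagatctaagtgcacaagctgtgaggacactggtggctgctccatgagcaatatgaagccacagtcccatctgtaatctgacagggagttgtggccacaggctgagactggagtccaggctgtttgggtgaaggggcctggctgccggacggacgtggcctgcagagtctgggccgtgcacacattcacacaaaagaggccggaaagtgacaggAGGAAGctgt
Adgra3: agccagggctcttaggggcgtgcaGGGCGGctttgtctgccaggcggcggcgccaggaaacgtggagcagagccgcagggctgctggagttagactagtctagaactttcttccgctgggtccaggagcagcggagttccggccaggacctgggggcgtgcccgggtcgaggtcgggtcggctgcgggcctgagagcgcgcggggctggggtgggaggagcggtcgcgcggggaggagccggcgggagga
The Adgrl4 window held 1 match to AGGAAG, close to the start, and none to the others, while the Adgra3 window held 1 match to GGGCGG. Over all 32851 windows of this length 29.5% held AGGAAG, 32.7% GGGCGG and 12.4% TATAAA. Among the members that fell, 3 of 7 windows held AGGAAG, and among those that rose 0 of 3 did; GGGCGG was in 1 of 7 and in 2 of 3. A match to these letters is a description and not a site, and the windows are few.

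Adgrl2, latrophilin 2, a receptor for teneurins and FLRT proteins on neighbouring cells, also fell. Its signal ran from 200.4 to 363 in EOM, with a median of 251, and from 562 to 904 in TA, with a median of 700.2. The groups did not overlap, and EOM 1 was the highest of its group. The difference was -1.43 ± 0.23 (SE, adjusted p = 0.000442). A further tested probe set was at -0.77 ± 0.24 (SE, adjusted p = 0.0633) with all arrays and did not pass, and without EOM 1 it passed, at -0.84 (adjusted p = 0.0138). Adgrl1, latrophilin 1, the receptor of the spider toxin latrotoxin, ran from 71.5 to 178 in EOM, with a median of 129, and from 34.4 to 237 in TA, with a median of 121. Its groups overlapped over most of their range, its difference was 0.17 ± 0.35 (SE, adjusted p = 0.871), and its other probe set was at 0.06 ± 0.31 (SE, adjusted p = 0.958). Adgrl3 had 6 probe sets, all under the level filter, and no group mean of any of them was above 32.6.

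In the F subfamily only Adgrf5 was above the filter. It is known as the receptor that limits lung surfactant and is also found on capillary endothelium. Its signal ran from 148 to 517 in EOM, with a median of 313, and from 4231 to 8579 in TA, with a median of 6122. The lowest TA array, TA 3, still lay well above EOM 5, the highest of its group, so the groups did not overlap. The difference was -4.17 ± 0.30 (SE, adjusted p = 1.88e-07), or 18.0-fold, and its other probe set, from 33.9 to 144 in EOM and from 622 to 1662 in TA, was at -3.70 ± 0.31 (SE, adjusted p = 6.02e-07). The groups were separate in both probe sets.

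The G subfamily went both ways: of 4 genes tested 2 fell, 1 rose and 1 did not pass. Adgrg1, a receptor for collagen III and transglutaminase 2 known from brain development and cytotoxic lymphocytes, ran from 2.10 to 42.7 in EOM, with a median of 27.2, and from 170.4 to 457 in TA, with a median of 271. All 6 TA arrays lay above all 6 EOM arrays, on which the signal was at most 42.7; the level of the filter, a mean on the log scale, corresponded to a signal of 26.9. The difference was -2.91 ± 0.34 (SE, adjusted p = 1.98e-05), and the other probe set was at -2.25 ± 0.33 (SE, adjusted p = 0.000212), again with no overlap. With EOM this close to background the size depends on the added constant, at -3.83 with 1 and -1.92 with 64 in place of 16, while the direction and the call were as reported with both. The first of these probe sets carries the suffix _x_at, by which the maker marks probes that may bind other transcripts too; the second does not.

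Adgrg6, which binds collagen IV and laminin and drives myelination, ran from 36.7 to 127 in EOM, with a median of 73.7, and from 182 to 516 in TA, with a median of 346. EOM 1 was the highest EOM array and TA 6 the lowest TA array, and the groups did not overlap. The difference was -2.0 ± 0.31 (SE, adjusted p = 0.000279). Its second probe set was at -0.63 ± 0.35 (SE, adjusted p = 0.353) and did not pass; there the EOM arrays lay between 29.3 and 46.7 and the TA arrays between 36.5 and 171. Adgrg3, a receptor of granulocytes and a neighbour of Adgrg1 on the chromosome in GRCm38.p6, ran from 5.0 to 123 in EOM, with a median of 42.0, and from 54.5 to 182 in TA, with a median of 89.0, with overlapping groups. Its difference was -1.0 ± 0.40 (SE, adjusted p = 0.162); EOM 1 was its highest EOM array, and without it the difference was -1.27 (adjusted p = 0.0175). Over its 25 alternatives the adjusted p ran from 0.00708 to 0.355.

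Adgrg2 was the member that rose most in EOM. It is known from the epididymis, where it takes part in fluid reabsorption. Its signal ran from 452 to 1003 in EOM, with a median of 826, and from 23.7 to 224 in TA, with a median of 141. All 6 EOM arrays were above all 6 TA arrays, among which TA 3 was the lowest, and the difference was 2.58 ± 0.37 (SE, adjusted p = 0.000153), or 5.96-fold. The other tested probe set had weak signals, from 32.8 to 138 in EOM and from 5.60 to 70.0 in TA, and its difference of 0.90 ± 0.39 (SE, adjusted p = 0.193) did not pass. Without EOM 1 it did not pass either, at 0.75 (adjusted p = 0.204). Without EOM 1, TA 3 and TA 5 it passed, at 1.13 (adjusted p = 0.0284).

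Adgrv1, the adhesion receptor of the ankle links between stereocilia in the inner ear, rose as well. Its signal ran from 48.1 to 182 in EOM, with a median of 162, and from 5.70 to 71.5 in TA, with a median of 24.9. On 5 of the 6 EOM arrays it was between 145 and 182 and above every TA array, while EOM 6, at 48.1, was below TA 0, at 71.5. The difference was 1.93 ± 0.37 (SE, adjusted p = 0.00238); without EOM 6 it was larger, at 2.18. The TA signals were close to background, so this size too depends on the added constant, at 2.59 with 1 and 1.17 with 64. Its second probe set was under the level filter, with group means of 15.8 in EOM and 14.3 in TA, so the increase rests on 1 probe set.

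Adgrd1, a receptor that raises cyclic AMP through Gs, ran from 676 to 1419 in EOM, with a median of 994, and from 217 to 491 in TA, with a median of 359. The lowest EOM array was EOM 1, and it too was above every TA array. The difference was 1.51 ± 0.26 (SE, adjusted p = 0.000768), or 2.85-fold. In the A subfamily, Adgra2, which acts with Reck in Wnt7 signalling of capillaries, ran from 275 to 378 in EOM, with a median of 352, and from 56.7 to 199.6 in TA, with a median of 145, with no overlap; TA 1 was far below the other TA arrays. The difference was 1.24 ± 0.27 (SE, adjusted p = 0.00573). Its only probe set carries the suffix _s_at, as does the one shown for Adgrg6, which the maker gives to probes shared by several transcripts.

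Adgra3, a relative of Adgra2 linked to planar cell polarity, ran from 147 to 283 in EOM, with a median of 207, and from 48.6 to 226 in TA, with a median of 73.7. The groups overlapped through TA 6 alone, which was the only TA array above 97.8. The difference was 1.09 ± 0.31 (SE, adjusted p = 0.0364), near the threshold. It no longer passed when EOM 0, EOM 2, EOM 3, EOM 5, TA 0, TA 1, TA 2 or TA 5 was left out (adjusted p = 0.0516 to 0.0869), with the replicate number as a fixed block (adjusted p = 0.0896; as a random block it passed, at 0.0480), with median centring (adjusted p = 0.0851), with no filter (adjusted p = 0.0601) or without EOM 1, TA 3 and TA 5 (adjusted p = 0.0542). Without TA 6 it was at 1.33 (adjusted p = 0.00450). The mean of its 3 probe sets, 2 of which were under the level filter, gave 0.33 (adjusted p = 0.470).

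The E subfamily holds receptors of leukocytes. Adgre5, known as CD97 and a receptor for CD55, fell: its signal ran from 176 to 624 in EOM, with a median of 278, and from 676 to 1946 in TA, with a median of 889.9. The gap between the groups was small, with EOM 1 just below TA 1, and the other EOM arrays were at 364 or less. The difference was -1.75 ± 0.33 (SE, adjusted p = 0.002). Adgre1, the antigen F4/80 of macrophages, ran from 21.6 to 72.0 in EOM, with a median of 39.3, and from 31.4 to 168 in TA, with a median of 84.4, with overlapping groups and a difference of -0.76 ± 0.34 (SE, adjusted p = 0.209). Adgre4, a receptor of myeloid cells, ran from 9.40 to 111 in EOM, with a median of 27.6, and from 1.90 to 80.7 in TA, with a median of 59.6, at -0.27 ± 0.47 (SE, adjusted p = 0.849). The groups overlapped in both, and neither passed with any alternative tried, where the lowest adjusted p was 0.0907 for Adgre1 and 0.443 for Adgre4.

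Of the B and Celsr receptors 1 each was tested, and neither passed. Adgrb1, an engulfment receptor for dying cells, ran from 7.0 to 153 in EOM, with a median of 51.3, and from 5.80 to 193 in TA, with a median of 13.8, and its difference was 0.33 ± 0.60 (SE, adjusted p = 0.856). Celsr2, a cadherin of planar cell polarity, ran from 29.9 to 189 in EOM, with a median of 46.8, and from 30.4 to 145 in TA, with a median of 52.7, at 0.02 ± 0.41 (SE, adjusted p = 0.987), with its other probe set at -0.57 ± 0.47 (SE, adjusted p = 0.591). The groups overlapped in both genes, and EOM 1 was the highest EOM array, at 153 for Adgrb1 and 189 for Celsr2. No direction can be given for Celsr2, whose sign changed with 6 of 25 alternatives.

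The remaining 8 members, Adgra1, Adgrb2, Adgrb3, Adgrf1, Adgrf4, Adgrl3, Celsr1 and Celsr3, were under the level filter. For the probe set that represents each gene, group means lay between 5.62 and 42.65. In 5 of these genes the highest of the 12 arrays was EOM 1 and in the other 3 it was TA 3, and apart from EOM 1, TA 3 and TA 5 no array exceeded 63.3. In the fit with no filter their differences ran from -0.51 for Celsr1 to 0.66 for Adgrb2. None of the 8 passed (limma, lowest adjusted p = 0.568, 0 with an unadjusted p under 0.05). Signals this low cannot be told from background without detection calls, which were not used here.

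Over single probe sets, 25 of the members' 45 were tested, of which 9 fell and 5 rose, beside 5.03% and 3.20% of all probe sets tested, and 11 had groups that did not overlap, beside 5.43%. Where a gene had several tested probe sets, they mostly gave 1 direction. This was so for 7 of 8 genes, the exception being Celsr2, which was not called. In 3 genes (Adgrl4, Adgrf5 and Adgrg1) both tested probe sets passed, in 3 (Adgrg2, Adgrg6 and Adgrl2) only 1 of them did, and in 2 (Adgrl1 and Celsr2) none did. The largest gaps between probe sets of a gene were 1.84 in Adgrl4, 1.67 in Adgrg2 and 1.37 in Adgrg6, as log2 differences. In each of these the probe set with the higher mean signal had the larger difference. The same held for Adgrf5, Adgrg1, Adgrl2 and Adgrl1, but not for Celsr2. Taking the probe set of highest mean for each gene thus gave the larger difference in all of these but Celsr2. Adgra2, Adgrd1 and Adgre5 had 1 probe set each.

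**Figure D3:**
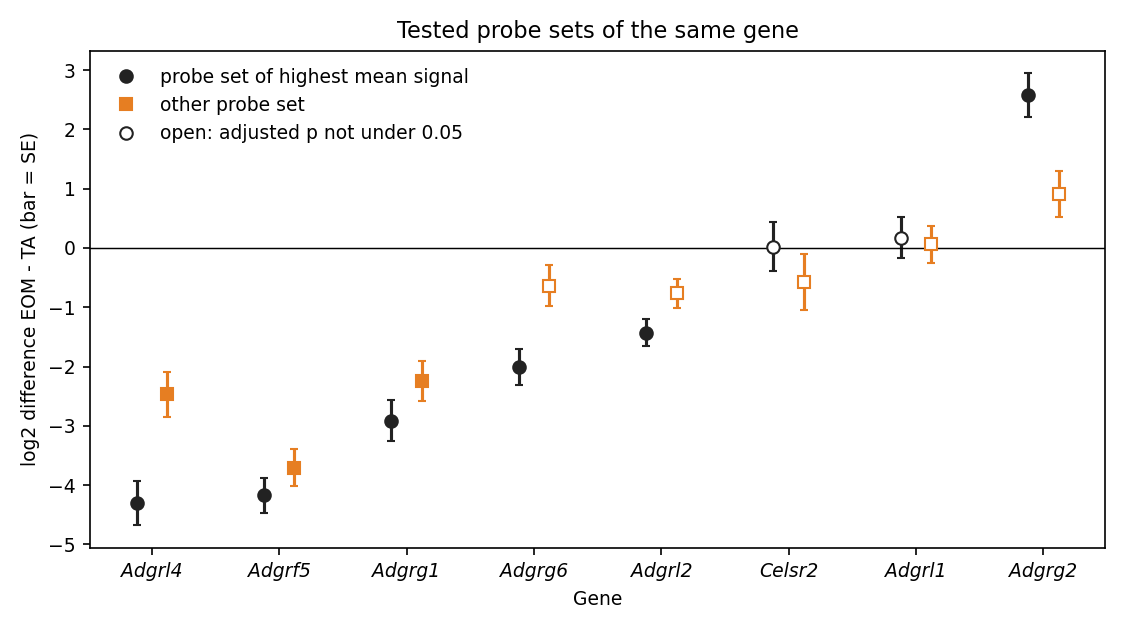
Log2 difference EOM minus TA with its SE for the 8 genes with several tested probe sets; the circle is the probe set of highest mean signal and the square the other one, and open marks did not pass the threshold. In every gene but Celsr2 the pair lies on the same side of 0 and the square is nearer to 0 than the circle.

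Markers of several cell types also differed between the muscles. Of 20 endothelial markers tested 17 fell and 0 rose, with a median of -3.29, and their summed signal was between 2944 and 5813 on EOM arrays and between 29266 and 53316 on TA arrays. Cdh5, the cadherin of endothelial junctions, had a mean of 66.3 ± 22.9 (SD, n = 6) for EOM against 1149 ± 664 for TA. Pecam1, at -1.84 ± 0.60 (SE, adjusted p = 0.0702), did not pass. Adgrl4 and Adgrf5 each fell further than 19 of the 20 markers, the exception being Egfl7 (-4.75). Adgrg1 fell further than 7 of them, Adgrg6 than 4, and Adgrl2 and Adgre5 than 2 each. Such ranks were not particular to the endothelial list. Adgrl4 and Adgrf5 also fell further than all 10 pericyte and smooth muscle, 7 pan-leukocyte and 11 macrophage and monocyte markers tested. Against these lists, in that order, Adgrg1 fell further than 6, 7 and 10 markers and Adgrg6 than 4, 3 and 6. The counts were 4, 3 and 5 for Adgre5, and 3, 2 and 5 for Adgrl2. Whether there were fewer cells of a type or less RNA in each cannot be told apart in bulk samples. The part of the lower endothelial marker signal in the decrease of these receptors was not tested.

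Pericyte and smooth muscle markers fell too, in 8 of 10 tested with 0 rising (median -2.36, summed signal 6221 to 10786 in EOM and 20522 to 34373 in TA), among them Rgs5 (-3.96) and Myh11 (-4.03). Of 7 pan-leukocyte markers 5 fell and 0 rose, with a median of -2.23 and a summed signal of 378 to 4326 in EOM and 4127 to 9945 in TA. Macrophage and monocyte markers gave 5 lower and 0 higher of 11, with a median of -1.89 and sums of 287 to 1674 and 1167 to 7602. Ptprc (-2.63) and Csf1r (-2.24) were among those that fell, beside -1.75 for Adgre5; their part in the decrease of Adgre5 was not tested. Granulocyte and mast cell markers gave 2 lower of 5, lymphatic markers 1 of 5, myogenic progenitor markers 1 of 4 and myofibre markers 1 of 4, with 0 higher in each. Of the 3 transporters of the side population, 2 fell and 0 rose, among them Abcg2 (-2.23).

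Fibroblast markers went the way of Adgrg2, Adgrd1 and Adgra2. Of 11 tested 7 rose and 0 fell (median 1.45, summed signal 108024 to 205649 in EOM and 53513 to 91280 in TA). Among those that rose was the defining marker Pdgfra, below that median, at 1.18 ± 0.32 (SE, adjusted p = 0.0282). Among the members that rose, Adgrg2 was above 10 of the 11 fibroblast markers in log2 difference, Adgrd1 above 6, Adgra2 above 4 and Adgra3 above 3; Adgrv1, whose difference depends on the added constant, was above 8 with the constant of 16. Without EOM 1, 8 fibroblast markers rose, and 17 endothelial, 8 pericyte, 5 pan-leukocyte and 7 macrophage markers fell. The part of the higher fibroblast marker signal in their increase was not tested. Of 5 Schwann cell and glial markers 0 fell and 0 rose (limma, 0 at an unadjusted p under 0.05, median -0.12). Their summed signal ran from 606 to 16043 in EOM, with a median of 1831, and from 1366 to 3228 in TA, with a median of 2057. Sox10, which marks Schwann cells, was at -0.34 ± 0.42 (SE, adjusted p = 0.76) beside -2.0 for Adgrg6. Lymphocyte markers gave 0 calls of 2 tested (limma, 1 lower at an unadjusted p under 0.05), erythroid markers had none above the filter, and Pax7 of muscle stem cells was under it, with a mean of 5.73 ± 3.11 (SD, n = 6) for EOM against 52.9 ± 41.4 for TA.

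**Figure D4:**
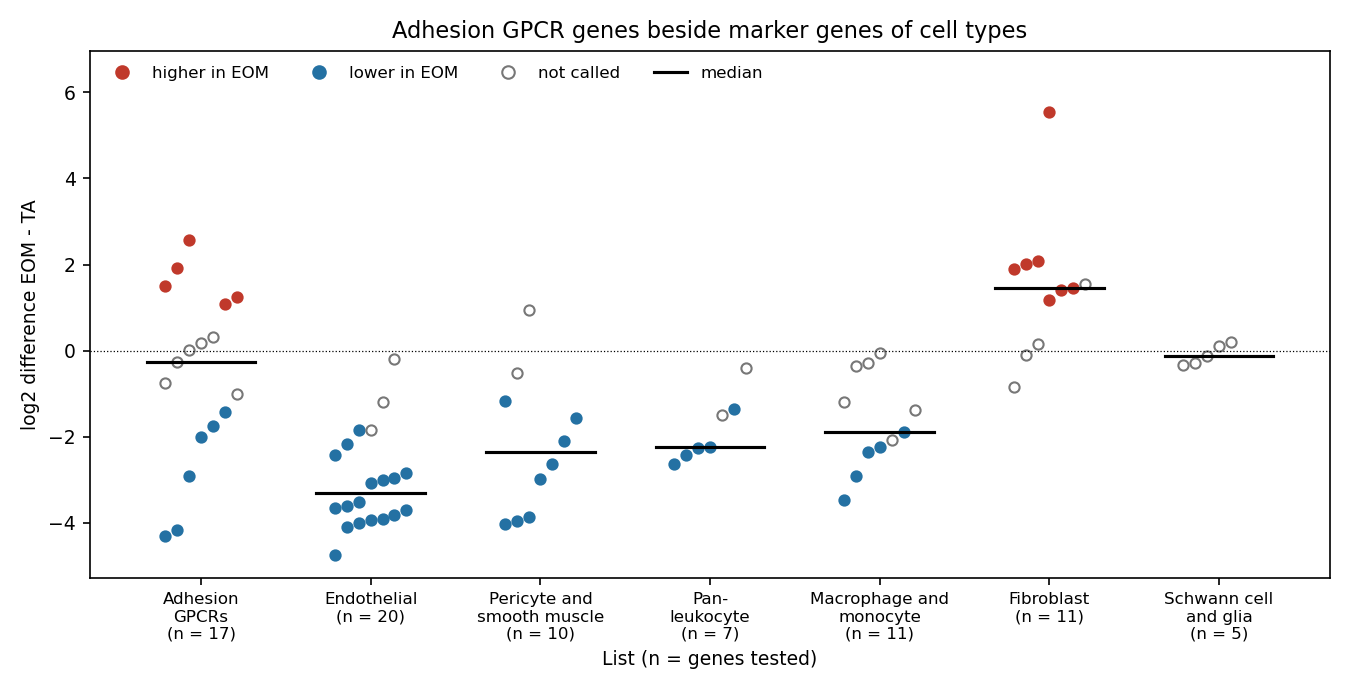
Log2 difference EOM minus TA of the 17 tested adhesion receptor genes beside the tested markers of 6 cell types; each point is a gene, filled where the adjusted p was under 0.05, and lines are medians. Endothelial markers have a median of -3.29 and fibroblast markers of 1.45, and the receptors span from -4.31 to 2.58.

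The ligands, partners and effectors of the receptors were followed in 7 lists. Of 121 entries 114 had a named probe set and 109 were tested, of which 9 fell and 4 rose (11.9% in all, beside 10.9% of all genes), a share near the background. These counts changed with single arrays, as did those of all genes. Without EOM 1 they were 13 and 13 of 109, beside 10.5% lower and 10.0% higher of all genes. Without TA 3 they were 9 and 7, beside 889 lower and 552 higher of all 13067 genes tested. Leaving out EOM 0, EOM 2 or EOM 3 brought the lower count to 6, as did TA 1, and without EOM 0, EOM 2, EOM 5, EOM 6, TA 1 or TA 5 the higher count was 2.

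The largest differences among the ligands were in 4 of the 6 chains of collagen IV. Of 22 matrix and surface ligands tested 3 rose and 3 fell. Of the chains of collagen IV, the matrix ligand of Adgrg6, Col4a2 fell, at -3.29 ± 0.24 (SE, adjusted p = 2.24e-07), as did Col4a1, at -2.18 ± 0.26 (SE, adjusted p = 2.04e-05). Col4a6 rose, at 3.26 ± 0.46 (SE, adjusted p = 0.000117), and so did Col4a5, at 3.13 ± 0.39 (SE, adjusted p = 4.10e-05). The other chains tested did not pass, Col4a3 at -0.16 ± 0.47 (SE, adjusted p = 0.922) and Col4a4 at 0.09 ± 0.26 (SE, adjusted p = 0.92). The Col4a6 signal in TA, with a mean of 22.9, was among values close to background. Lamb1, a laminin chain, rose (1.06, adjusted p = 0.04), and Lama2, the chain of muscle laminin, was at -0.13 ± 0.33 (SE, adjusted p = 0.903). Tgm2, a ligand of Adgrg1, fell (-1.40, adjusted p = 0.0401), and Col3a1, the other, was at 0.0 ± 0.28 (SE, adjusted p = 0.997). With no level filter neither Lamb1 (adjusted p = 0.0625) nor Tgm2 (adjusted p = 0.0708) passed, and without EOM 1, TA 3 and TA 5 Lamb1 did not (adjusted p = 0.0579). Cd55, the ligand of Adgre5, was at 0.75 ± 0.27 (SE, adjusted p = 0.113) and did not pass.

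The latrophilin ligands, FLRT proteins, teneurins and neurexins, gave 0 calls among 9 tested with all arrays (limma, 1 higher and 1 lower at an unadjusted p under 0.05, median -0.38). Tenm2 was at -1.27 ± 0.44 (SE, adjusted p = 0.0928), and Flrt2 at 1.09 ± 0.41 (SE, adjusted p = 0.125); without EOM 1 both passed, at -1.39 (adjusted p = 0.0355) and 1.45 (adjusted p = 0.00193). Reck, the membrane anchor that presents Wnt7 with Adgra2, had a mean of 2156 ± 1055 (SD, n = 6) for EOM against 637 ± 132 for TA. EOM 1, at 211, was its lowest array. Its difference was 1.40 ± 0.50 (SE, adjusted p = 0.101), and without EOM 1 it was 1.98 (adjusted p = 3.24e-06). The 8 tested genes of that complex gave 0 calls with all arrays (limma, 2 higher and 1 lower at an unadjusted p under 0.05). Without EOM 1, Lrp6 rose as well, at 0.82 (adjusted p = 0.037), and Lef1 fell, at -1.55 (adjusted p = 0.0239). With all arrays Wnt7a was at 0.19 ± 0.39 (SE, adjusted p = 0.875). Reck, Lrp6, Lef1, Tenm2 and Flrt2, like Dvl1, Gng10, Gnb5 and Adcy1, were named after their values were seen.

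Polarity partners of the Celsr receptors gave 1 call of 12 tested, Dvl2, a transducer of Wnt signals, which rose, at 0.90 ± 0.25 (SE, adjusted p = 0.0346). With no level filter Dvl2 did not pass (adjusted p = 0.0834), and without EOM 1 Dvl1 passed too, in the other direction, at -0.68 (adjusted p = 0.0466). Partners of the Adgrb receptors gave 0 of 12 and those of Adgrv1 0 of 2 (limma, at an unadjusted p under 0.05 there were 2 higher and 0 lower in the first list, and 0 higher and 1 lower in the second). Among 44 genes of G protein and arrestin signalling 6 fell and 0 rose with all arrays, beside 6.81% and 4.05% of all genes (limma, 7 lower and 3 higher at an unadjusted p under 0.05). Without EOM 1, 7 fell and 3 rose (Gng10, Gnb5 and Adcy1), beside 10.5% lower and 10.0% higher of all genes. Without the 3 arrays of high median signal 8 fell and 4 rose, beside 11.2% lower and 10.6% higher of all genes. The largest decreases were in the adenylyl cyclase Adcy4, at -2.21 ± 0.35 (SE, adjusted p = 0.000381), and the G protein gamma subunit Gng11, at -1.97 ± 0.25 (SE, adjusted p = 4.40e-05). The cyclase Adcy2 (-1.42) fell as well. The median of the 44 was -0.16, beside -0.04 for all genes.

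**Figure D5:**
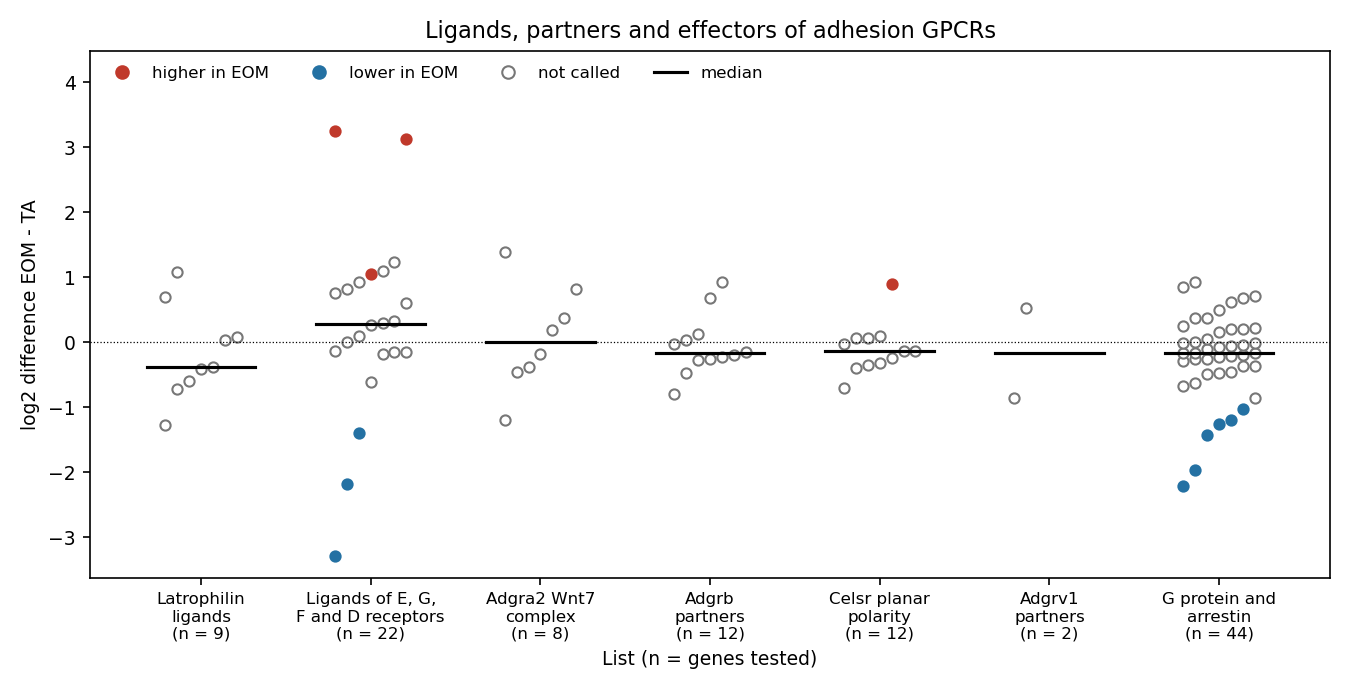
Log2 difference EOM minus TA of tested ligands, partners and effectors of the adhesion receptors in 7 lists; points are genes, filled where the adjusted p was under 0.05, and lines are medians. Calls lie mainly among the ligands of the E, G, F and D receptors, from -3.29 to 3.26, and among the G protein genes, where the 6 calls with all arrays are below 0.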

How the data were processed

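RNA from side population cells was amplified in 2 cycles and hybridized to mouse whole-genome arrays, 1 preparation per array, per the labels' protocols. The deposited values are signal intensities that the authors computed with MAS5, per the submitters' processing notes, and each array had been scaled to a 2% trimmed mean of 150.0. Arrays give no counts; 6 arrays per group limit the precision. Present and absent calls were not used here. Of 45101 probe sets, 64 were controls; 34945 of the rest had 1 gene symbol, 932 several and 9160 none. All 25 member symbols equal the current names in GRCm38.p6.

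Signals were taken as log2(signal + 16). The 40% that were dimmest on average over the 12 arrays were left out, leaving 27022, and EOM was compared with TA with limma 3.58.1 in R 4.3.3 (empirical Bayes with an intensity trend, two-sided, Benjamini-Hochberg adjusted p over all probe sets tested, threshold 0.05). All adjusted p-values come from limma. A gene is represented by its probe set of highest mean. The fit was also run on simulated data with 200 changed probe sets, the outcome of which is not given here. Members were named whatever their result. From each other list, up to 4 called genes with the largest difference could be named, plus defining markers and the partners named by receptor. Not all genes that this rule selects are named in the text, so a named marker need not be the largest of its list. The result of 1 gene that this rule selects is not reported here. The members and lists were chosen with earlier results of these data known. Both groups carry the replicate numbers 0, 1, 2, 3, 5 and 6, with 4 absent from each. Nothing in the labels says that equal replicate numbers mark 1 animal or day. The deviations of same-numbered arrays correlated at -0.32 to 0.16 (2 of 6 pairs over 0.1), so no block was used. Alternatives were the added constant, normalization, filter, variance trend, array weights, replicate block, 3' to 5' ratio, probe set rule and left-out arrays.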

Additional observations from a re-analysis of the deposited data

Results flagged for a closer look

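Among 50 combinations of a member gene and a group, 5 had an array far from the other 5 of its group by Dixon's criterion for 6 values; chance alone gives about 1 in 20. EOM 1 was high for 3 genes under the level filter: Adgra1 at 181.5 (the others 4.0 to 17.8), Adgrf1 at 116.2 (0.9 to 12.7) and Celsr3 at 221 (3.4 to 10.2). TA 1 was low for Adgra2, at 56.7 against 128.8 to 199.6. EOM 6 was low for Adgrv1, at 48.1 against 144.6 to 182.3.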

How the results depend on the processing

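Each of the 17 tested members was refitted under up to 25 alternatives, 423 fits in all. In 401 direction and call were as reported, in 13 a call was lost (all Adgra3), in 2 one was gained (Adgrg3, with array weights and without EOM 1) and in 7 the sign of an uncalled gene changed. The other 10 called members kept direction and call under every alternative run. With 1 array left out the difference of Adgrl1 ran from -0.084 to 0.38 and that of Celsr2 from -0.26 to 0.25, and Celsr2 was at -0.27 as the mean of its probe sets. Members lower numbered 6 or 7 and members higher 4 or 5 under all alternatives. Partner genes lower (9) became 19 with array weights and 16 without EOM 1, TA 3 and TA 5, and 6 to 13 with 1 array left out. Partner genes higher (4) became 2 with quantile normalization, 2 with no filter, 8 with a 60% filter, 16 with array weights, 9 with the 3' to 5' ratio as covariate, 13 without the 3 arrays, and 2 to 13 with 1 array left out. The causes were not tested, except that other filters change how many probe sets are adjusted for. With the replicate block as a fixed term, members were 6 lower and 4 higher and partners 8 lower and 2 higher; as a random block they were 6, 5, 7 and 3. Of 12 arrays 1 correlated best with its own number in the other group. Over all genes, 529 higher and 890 lower became 328 and 576 with median centring, 1566 and 1698 with array weights, 1307 and 1368 without EOM 1, and 1387 and 1466 without the 3 arrays. In genes near background, an array with a raised median signal limits what can be seen.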
